A study of Mus musculus with 20 samples.

Results

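The presynaptic release machinery was followed through 33 genes of synaptic vesicles, SNARE proteins, calcium sensors and the active zone in nuclei of mouse spinal cord. The genes were taken from a list of symbols, not from measured values, and all 33 were found among the 43629 genes of the count table. In NeuN-positive nuclei of mice with experimental autoimmune encephalomyelitis (EAE, a disease model of multiple sclerosis in which immune cells enter brain and spinal cord), 6 of the 33 were lower than in healthy mice and 1 was higher. Of all genes tested there, 3.68% were lower and 6.55% higher. The 6 were Doc2a, Unc13a, Stx1a, Syn2, Ppfia2 and Rims2, and the gene that was higher was Unc13c. In NeuN-negative nuclei 5 were lower in EAE (Sv2a, Nrxn2, Vamp2, Syt3 and Stx1a) and 2 were higher (Unc13c and Sv2c), where 12.6% of all genes tested were lower and 15.1% higher. Doc2a in NeuN-positive and Sv2c in NeuN-negative nuclei passed the expression filter through the group where each was higher. Their calls are counted here, and no change is read from them.

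The 4 groups were NeuN-positive nuclei of EAE mice, NeuN-positive nuclei of healthy mice, NeuN-negative nuclei of EAE mice and NeuN-negative nuclei of healthy mice, with 5 libraries each. EAE mice were taken at day 15 after active immunization. Healthy mice carry no other treatment in the labels, and the labels used here name no strain, age or antigen and no pooling of mice. NeuN is a nuclear protein of neurons, so the positive sort is enriched for neuronal nuclei and the negative sort for nuclei of other cells. Polyadenylated RNA of the sorted nuclei was sequenced, and mitochondrially encoded RNA, which does not come from the nucleus, was among the counts. No label says that the libraries come from separate mice, so the p-values measure the spread between these libraries.

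A vesicle is filled with transmitter, held at the active zone by scaffold proteins, primed by Munc13 and RIM proteins and fused with the membrane by the SNARE proteins syntaxin-1, SNAP-25 and synaptobrevin. Synaptotagmins and Doc2 proteins bind calcium and trigger fusion, complexins clamp and assist the SNARE complex, and dynamin cuts the vesicle free again in endocytosis. In the spinal cord this machinery serves transmission among interneurons, from sensory afferents and from descending axons, and the RNA of a presynaptic protein is found at the cell body of the neuron that sends the axon.

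Total counts ran from 7072200 to 18686997 in EAE NeuN-positive, from 12076860 to 30499828 in healthy NeuN-positive, from 3149209 to 15525441 in EAE NeuN-negative and from 8336330 to 37689267 in healthy NeuN-negative libraries. The share of mitochondrially encoded counts was 1.08 to 9.35% in EAE NeuN-positive libraries and 0.197 to 3.003% in healthy NeuN-positive libraries, and 2.18 to 14.6% in EAE NeuN-negative libraries and 0.367 to 4.51% in healthy NeuN-negative libraries. Numbers EAE 2, EAE 4 and healthy 3 had over 2% in the NeuN-positive sort, and EAE NeuN-negative 2 had both the lowest total and the highest mitochondrial share of all libraries. In the NeuN-positive sort the 10 oligodendrocyte markers summed to 98431 CPM in EAE 2, 50103 CPM in EAE 4 and 44308 CPM in healthy 3, against 10773 to 12609 CPM in the other EAE and 3623 to 11715 CPM in the other healthy libraries. Rbfox3, the gene of NeuN, averaged 194 ± 58.3 CPM in EAE NeuN-positive and 312 ± 33.2 CPM in healthy NeuN-positive libraries, and 29.6 ± 15.7 CPM in EAE NeuN-negative and 29.6 ± 10.7 CPM in healthy NeuN-negative libraries (SD, n = 5 each). CPM are counts scaled to library size, after TMM scaling over all 20 libraries.

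Most of the machinery was higher in the NeuN-positive sort. In healthy mice 28 of the 33 genes were higher in NeuN-positive than in NeuN-negative nuclei and 0 were lower, where 22.8% of all 17134 genes tested were higher and 23% lower. The 28 include Doc2a, from which no difference is read (below). The median log2 difference of the 33 was 1.70, against -0.01 over all genes tested. In EAE mice 24 of 32 genes tested were higher in NeuN-positive nuclei and 0 were lower, where 15.5% of 17982 genes were higher and 14.8% lower, with a median of 1.64 for the 32 and -0.16 for all genes. A gene was called at an adjusted p under 0.05 in edgeR's quasi-likelihood test. In both conditions 22 of the genes were called higher, and the share of all genes called higher in both was not counted. Of 14 neuron markers, 12 were higher in the NeuN-positive nuclei of healthy mice and 11 in those of EAE mice, and 0 were lower in either.

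Among the calcium sensors Syt1, Syt2, Syt3, Syt4, Syt7 and Doc2b were called higher in healthy NeuN-positive nuclei. Their log2 differences lay between 2.396 for Syt1 and 2.914 for Syt3. Doc2a (2.995), also among the 28, had 152 counts over the 5 healthy NeuN-negative libraries. It was filtered out of the comparison within that sort and entered this fit through the NeuN-positive libraries, so no difference is read from it. Unc13a, the main Munc13 priming factor of many central synapses, had the largest difference in healthy mice at 3.12 ± 0.26 (SE), and Syt3 the largest in EAE mice at 3.75 ± 0.36. Dnm1, the dynamin of neurons, was higher by 3.51 ± 0.47 in EAE and 2.90 ± 0.51 in healthy mice. In healthy mice the log2 differences of the priming and active zone genes ran down to 1.21 ± 0.38 for Unc13c, with Bsn, the scaffold bassoon, at 2.72 ± 0.31 and Erc2, another scaffold, at 2.50 ± 0.32. The vesicle genes Syp (2.31 ± 0.29), Syn1 (2.44 ± 0.34) and Rab3a (1.17 ± 0.25) were higher as well, and so were Nrxn3 (2.51 ± 0.22) and Nrxn2 (0.95 ± 0.31). In EAE mice the genes not called were Stx1a, Vamp2, Doc2b, Syn3, Sv2c, Unc13c, Rims2 and Ppfia2, with log2 differences of -1.40 for Sv2c to 0.92 for Stx1a.

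Snap25, Vamp1, Vamp2, Syn3 and Sv2c did not pass the test in healthy mice. For Vamp2, the synaptobrevin of most central synapses, the level per exon length was 61.3 ± 13.2 CPM per kb in healthy NeuN-positive and 81.2 ± 23.5 CPM per kb in healthy NeuN-negative nuclei (SD, n = 5 each), a log2 difference of -0.35 ± 0.22 (adjusted p = 0.219). Healthy NeuN-negative 5 was the highest library of its group for Snap25 (939 CPM, others 132 to 254), Vamp1 (469 CPM, others 169 to 233) and Syt1 (57.7 CPM, others 13.9 to 21.2), and its neuron markers summed to 3554 CPM, where the other 4 libraries had 1486 to 2663 CPM. The part of neuronal nuclei in that library was not tested. With the replicate number as a block, which pairs the sorts of a number, Snap25 (log2 difference 1.11, adjusted p = 0.000356), Vamp1 (0.86, adjusted p = 0.0011) and Sv2c (1.58, adjusted p = 0.00165) were higher in healthy NeuN-positive nuclei and Vamp2 was lower (-0.34, adjusted p = 0.0134). In EAE mice the block added Stx1a (0.85, adjusted p = 0.0353). With the block 33.2% of all genes were higher and 32.5% lower in healthy mice, and 20% and 17.8% in EAE mice.

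**Figure D1:**
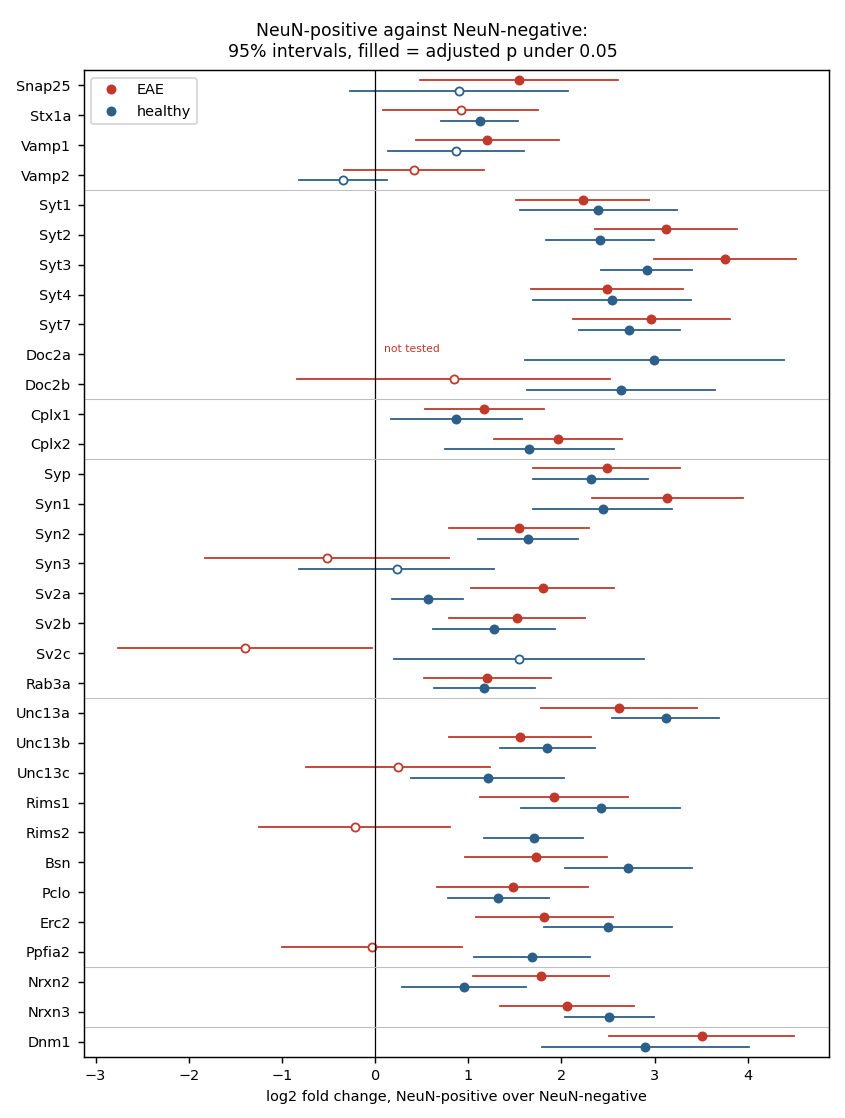
Log2 fold change of NeuN-positive over NeuN-negative nuclei for each gene, with EAE above and healthy below, 95% intervals as lines and filled points for adjusted p under 0.05; horizontal lines separate SNAREs, calcium sensors, complexins, vesicle genes, active zone genes, neurexins and dynamin. Most points lie right of 0 in both conditions, and Syn3, Sv2c and Vamp2 were not called in either.

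Dnm1 had the highest level per exon length in NeuN-positive nuclei, at 335 ± 153 CPM per kb in EAE and 370 ± 239 CPM per kb in healthy libraries (SD, n = 5 each). Next in healthy NeuN-positive nuclei came Cplx1, a complexin, at 147 ± 26.4 CPM per kb, Syn1, a vesicle-binding synapsin, at 124 ± 44.4 and Syt3 at 118 ± 24.0, which did not differ from each other beyond their spread. Sv2c, a vesicle glycoprotein, was the lowest, at 0.357 ± 0.0789 in EAE and 0.675 ± 0.420 CPM per kb in healthy NeuN-positive libraries. Together the 33 genes took 0.660 to 0.864% of all counts in EAE NeuN-positive and 0.802 to 1.03% in healthy NeuN-positive libraries, and 0.147 to 0.253% in EAE NeuN-negative and 0.204 to 0.444% in healthy NeuN-negative libraries. Healthy NeuN-positive 3, a library with a high mitochondrial share, held the highest values of its group for Dnm1 (4051 CPM, others 921 to 2090), Pclo, Syn3 and Sv2c.

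Within the roles, by the mean level per exon length in healthy NeuN-positive nuclei, Snap25, which encodes a SNARE protein of the presynaptic membrane, was the highest SNARE gene. It had 109, 243, 53.4, 96.5 and 161 CPM per kb in EAE NeuN-positive libraries 1 to 5 and 78.3, 84.0, 43.4, 60.5 and 181 CPM per kb in healthy NeuN-positive libraries 1 to 5. Stx1a was the lowest SNARE gene, with 10.5, 4.16, 17.4, 7.62 and 10.4 CPM per kb in EAE NeuN-positive libraries 1 to 5 and 25.8, 27.4, 21.1, 26.2 and 19.9 CPM per kb in healthy NeuN-positive libraries 1 to 5. EAE 2 and healthy 5 were the highest libraries of their groups for Snap25, and its groups overlapped.

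Syt3 was the highest calcium sensor, with 122, 61.0, 105, 139 and 109.7 CPM per kb in EAE NeuN-positive libraries 1 to 5 and 111, 118, 143, 134 and 81.3 CPM per kb in healthy NeuN-positive libraries 1 to 5. Doc2b was the lowest, with 1.11, 1.64, 1.55, 1.02 and 1.25 CPM per kb in EAE NeuN-positive libraries 1 to 5 and 2.22, 2.42, 2.57, 2.53 and 2.19 CPM per kb in healthy NeuN-positive libraries 1 to 5. The EAE and healthy libraries overlapped for Syt3 and not for Doc2b. How many of all genes have EAE and healthy libraries that do not overlap was not counted, here or below. Separation of the groups describes a gene's values and is not read as particular to these genes. The complexins differed in level: Cplx1 had 142, 118, 99.9, 145 and 115 CPM per kb in EAE NeuN-positive libraries 1 to 5 and 111, 132, 179.8, 151 and 161 CPM per kb in healthy NeuN-positive libraries 1 to 5. Cplx2 had 44.9, 56.7, 30.7, 74.6 and 37.1 CPM per kb in EAE NeuN-positive libraries 1 to 5 and 31.4, 40.7, 96.3, 53.5 and 26.0 CPM per kb in healthy NeuN-positive libraries 1 to 5. Healthy 3 was the highest healthy library for both.

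Among vesicle genes Syn1 was the highest, with 104, 65.2, 89.5, 157 and 84.0 CPM per kb in EAE NeuN-positive libraries 1 to 5 and 100.1, 99.98, 198, 132 and 89.8 CPM per kb in healthy NeuN-positive libraries 1 to 5. Sv2c was the lowest, with 0.345, 0.229, 0.409, 0.431 and 0.371 CPM per kb in EAE NeuN-positive libraries 1 to 5 and 0.174, 0.549, 1.33, 0.583 and 0.740 CPM per kb in healthy NeuN-positive libraries 1 to 5. EAE 4 and healthy 3 were the highest libraries of their groups for both. Of the priming and active zone genes Unc13a was the highest, with 24.8, 11.2, 46.2, 28.0 and 26.2 CPM per kb in EAE NeuN-positive libraries 1 to 5 and 61.7, 64.1, 90.8, 78.6 and 57.7 CPM per kb in healthy NeuN-positive libraries 1 to 5. Rims2 was the lowest, with 0.637, 1.07, 1.90, 1.497 and 0.926 CPM per kb in EAE NeuN-positive libraries 1 to 5 and 2.19, 2.62, 2.74, 2.63 and 3.04 CPM per kb in healthy NeuN-positive libraries 1 to 5. Both had every EAE library below every healthy library.

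The adhesion genes were closer to each other: Nrxn2 had 19.8, 11.8, 19.6, 36.7 and 18.7 CPM per kb in EAE NeuN-positive libraries 1 to 5 and 20.3, 23.0, 44.3, 30.9 and 17.4 CPM per kb in healthy NeuN-positive libraries 1 to 5. Nrxn3 had 22.2, 13.5, 15.5, 16.6 and 22.8 CPM per kb in EAE NeuN-positive libraries 1 to 5 and 16.3, 16.5, 17.6, 16.7 and 13.3 CPM per kb in healthy NeuN-positive libraries 1 to 5. Dnm1 had 302, 233, 265, 605 and 271 CPM per kb in EAE NeuN-positive libraries 1 to 5 and 259.6, 246, 772, 398 and 175 CPM per kb in healthy NeuN-positive libraries 1 to 5. EAE 4 and healthy 3 were the highest for Nrxn2 and Dnm1, and the EAE and healthy libraries overlapped for these 3 genes.

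**Figure D2:**
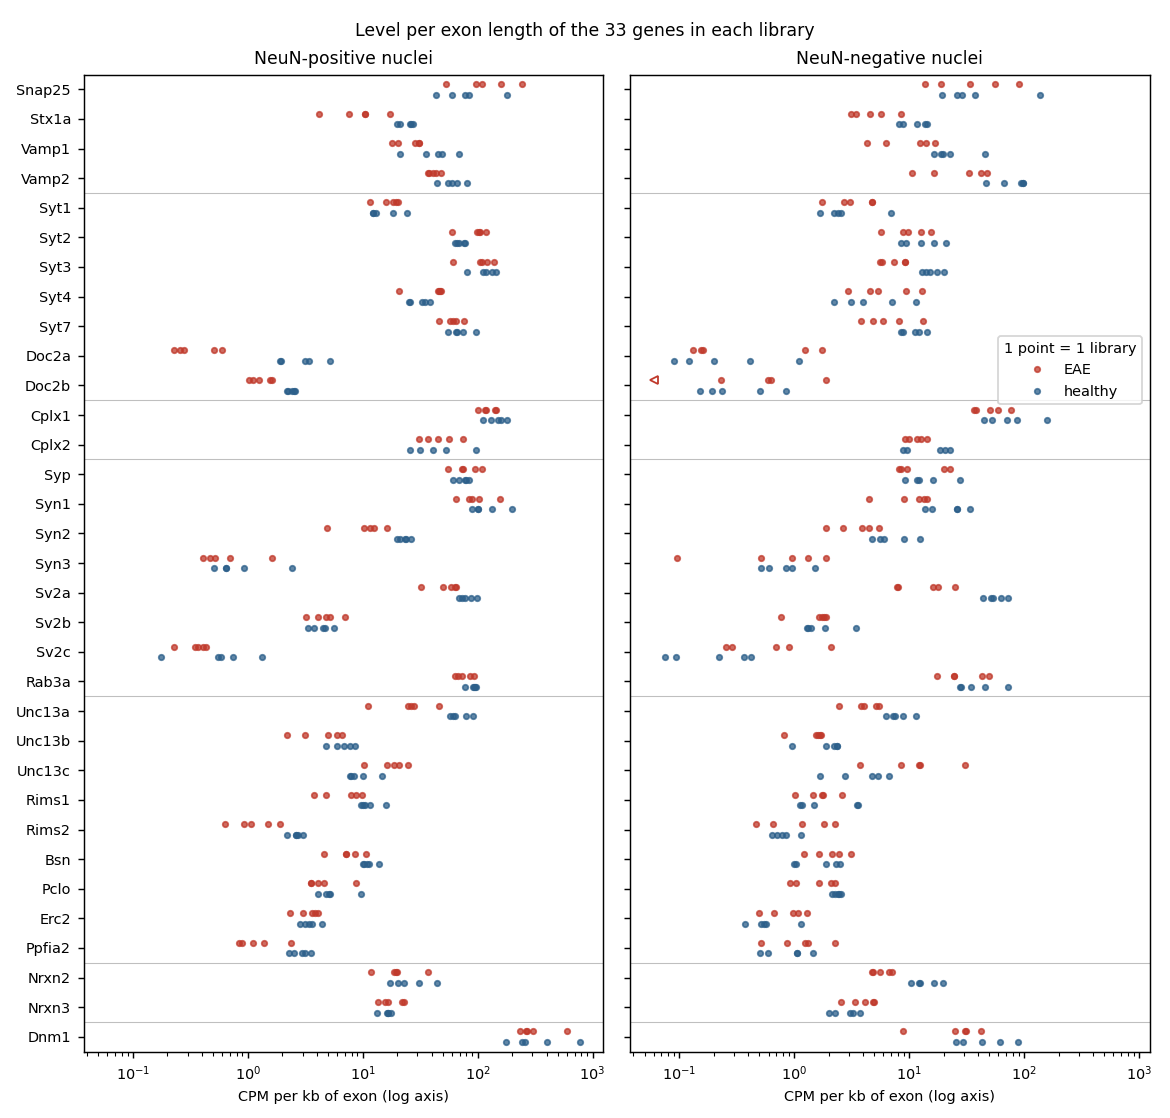
Level of each gene in CPM per kb of exon (log axis) in NeuN-positive (left) and NeuN-negative nuclei (right), 1 point per library, EAE above healthy. The open triangle marks Doc2b, which had no count in EAE NeuN-negative 2. Dnm1 has the highest mean in NeuN-positive nuclei and most genes sit further left in NeuN-negative nuclei.

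Most of these genes were not called between EAE and healthy mice in NeuN-positive nuclei. Of the 33 genes 6 were lower and 1 was higher in EAE, where 3.68% of all 16675 genes tested were lower and 6.55% higher. The share lower was thus above that of all genes and the share higher below it. Of the 33 genes 14 had an unadjusted p under 0.05, and the share of all genes under that p was not counted. The median log2 fold change was -0.25 for the 33, -0.03 for all genes and -0.25 for the 14 neuron markers, of which 0 were called in either direction. Scaling to 513 neuron-enriched genes gave 10.3% of all genes higher and 1.39% lower, and a median of 0.05 for the 33, so the sign of that median depends on the scaling. Without healthy NeuN-positive 3 it was -0.02. Fewer neurons of a type and less RNA per nucleus cannot be told apart in these sorts. The EAE libraries also held more RNA of immune cells: all 8 monocyte and macrophage markers were higher, their sum 243.5 to 1449 CPM in EAE and 4.81 to 19.9 CPM in healthy NeuN-positive libraries. The part of these nuclei, and of the oligodendrocyte RNA in EAE 2, EAE 4 and healthy 3, in the levels of the 33 genes was not tested.

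Among the SNARE genes Stx1a, which encodes syntaxin-1A of the presynaptic membrane (ENSMUSG00000007207, chr5:135023482-135051100, plus strand; GRCm38 here and for all genes), fell. It had 27.9, 11.1, 46.5, 20.3 and 27.8 CPM in EAE NeuN-positive libraries 1 to 5 and 68.8, 73.2, 56.3, 69.8 and 53.1 CPM in healthy NeuN-positive libraries 1 to 5. Every EAE library lay below every healthy library, and the change on the log2 scale was -1.20 ± 0.30 (SE; edgeR, adjusted p = 0.0213). Without EAE 1, 4 or 5 or healthy 2 it was not called (-1.21 to -1.13, adjusted p = 0.0515 to 0.0563). Vamp1 (log2 fold change -0.69, adjusted p = 0.118), Vamp2 (-0.48, adjusted p = 0.115) and Snap25 (0.69, adjusted p = 0.306) did not pass the test. Their 95% intervals were -1.29 to -0.10, -0.90 to -0.07 and -0.23 to 1.601.

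Doc2a, a calcium sensor of spontaneous and asynchronous release (ENSMUSG00000052301, chr7:126847416-126852705, plus strand), had the lowest log2 fold change. It had 0.640, 1.43, 1.69, 0.720 and 0.785 CPM in EAE NeuN-positive libraries 1 to 5, from 5 to 34 counts a library, and 8.85, 9.66, 5.45, 5.39 and 14.5 CPM in healthy NeuN-positive libraries 1 to 5. The groups did not overlap, and the log2 fold change was -2.96 ± 0.45 (adjusted p = 0.000775). Doc2a passed the expression filter through the healthy libraries, where it was higher, so no fall is read from its call. Doc2b, its relative, had 4.46 to 7.14 CPM in EAE and 9.55 to 11.2 CPM in healthy libraries and did not overlap either (-0.78 ± 0.28 on the log2 scale, adjusted p = 0.0834).

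The 5 synaptotagmins in the list did not pass the test, with log2 fold changes of -0.16 to 0.54. Syt2, the fast calcium sensor of many spinal and hindbrain synapses, had the highest, 0.54 with an interval of 0.05 to 1.02 (adjusted p = 0.137). Both complexins, the clamp and helper of the SNARE complex, were also not called: Cplx1 at -0.17 (interval -0.62 to 0.28) and Cplx2 at 0.05 (interval -0.74 to 0.84).

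Of the 8 vesicle genes Syn2 fell and the others were not called. Syn2, a synapsin that tethers vesicles to actin (ENSMUSG00000009394, chr6:115134902-115282006, plus strand), had 89.0, 34.4, 115, 72.7 and 81.0 CPM in EAE libraries 1 to 5 and 139, 164, 148, 184 and 169 CPM in healthy libraries 1 to 5. The groups did not overlap, and the log2 fold change was -0.97 ± 0.26 (adjusted p = 0.0284). It was not called without EAE 1, 4 or 5 or healthy 2 or 4 (adjusted p = 0.0569 to 0.0684). Sv2a, a vesicle glycoprotein bound by the antiepileptic drug levetiracetam, was separated as well, at 148 to 303 CPM in EAE and 321 to 461 CPM in healthy libraries, but at -0.52 ± 0.21 was not called (adjusted p = 0.124). Syp, Syn1, Syn3, Sv2b, Sv2c and Rab3a had log2 fold changes of -0.85 to 0.23.

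Most of the calls lay among the priming and active zone genes, where 3 of 9 fell and 1 rose. Unc13a, which encodes Munc13-1 and primes vesicles for release (ENSMUSG00000034799, chr8:71624417-71671757, minus strand), had 313, 141, 583, 353 and 330.4 CPM in EAE libraries 1 to 5 and 778, 810, 1146, 992 and 728.5 CPM in healthy libraries 1 to 5. The groups did not overlap (log2 fold change -1.32 ± 0.31, adjusted p = 0.016). Rims2, a RIM scaffold of the active zone (ENSMUSG00000037386, chr15:39198261-39684372, plus strand), had 6.61, 11.1, 19.8, 15.6 and 9.62 CPM in EAE and 22.8, 27.2, 28.4, 27.3 and 31.6 CPM in healthy libraries, with no overlap (-1.06 ± 0.29, adjusted p = 0.0365). Only without EAE 3 or 4 or healthy 3 did Rims2 stay called (without any other library, adjusted p = 0.0584 to 0.0952). Ppfia2, liprin-alpha-2, an organizer of the active zone (ENSMUSG00000053825, chr10:106470339-106935952, plus strand), had 12.1, 9.67, 25.9, 9.07 and 15.3 CPM in EAE and 32.5, 34.4, 24.8, 27.5 and 39.1 CPM in healthy libraries. EAE 3 lay above the lowest healthy library, and the log2 fold change was -1.06 ± 0.29 (adjusted p = 0.034). Ppfia2 was called without EAE 3 or healthy 3 and not without any of the other 8 libraries (adjusted p = 0.0559 to 0.0863).

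Unc13c, which encodes Munc13-3, a cerebellar Munc13 isoform (ENSMUSG00000062151, chr9:73479422-73968966, minus strand), went the other way. It had 144, 218, 91.2, 183 and 166 CPM in EAE libraries 1 to 5 and 73.3, 70.2, 129, 87.8 and 68.7 CPM in healthy libraries 1 to 5. EAE 3 and healthy 3 overlapped, and the log2 fold change was 0.98 ± 0.28 (adjusted p = 0.0417). EAE 2, EAE 4 and healthy 3, the libraries of high mitochondrial share and oligodendrocyte RNA, were the highest or second highest of their groups. Without these 3 the log2 fold change was 0.95 (adjusted p = 0.0257), and with the mitochondrial share as a covariate it was 0.43 (adjusted p = 0.339). Unc13c was called without EAE 3 or healthy 3 and not without any of the other 8 libraries (adjusted p = 0.0688 to 0.115). Per exon length Unc13a and Unc13c, 2 Munc13 paralogs, stood at 27.3 ± 12.5 and 18.2 ± 5.37 CPM per kb in EAE and at 70.6 ± 13.8 and 9.76 ± 2.89 CPM per kb in healthy libraries (SD, n = 5 each). Unc13b, Rims1, Bsn, Pclo and Erc2 had log2 fold changes of -0.65 to 0.03 and were not called.

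Nrxn2 and Nrxn3, presynaptic adhesion genes, and Dnm1 did not pass the test, at -0.29, 0.24 and -0.08 on the log2 scale. For Dnm1 the interval was wide, -0.97 to 0.81, with EAE 4 at 3178 and healthy 3 at 4051 CPM against 921 to 2090 CPM in all other NeuN-positive libraries. Without EAE 2, EAE 4 and healthy 3, the numbers of high mitochondrial share, 3 of the 6 lower genes were called, Doc2a (-3.07), Unc13a (-0.90) and Stx1a (-0.84). In all 21 alternatives Doc2a and Unc13a were called lower. Stx1a was called in 16 of them, Syn2 in 14, Rims2 in 10 and Ppfia2 in 9, and Unc13c was called higher in 8. For Doc2a, which entered the main fit through the healthy libraries, these calls add no support.

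**Figure D3:**
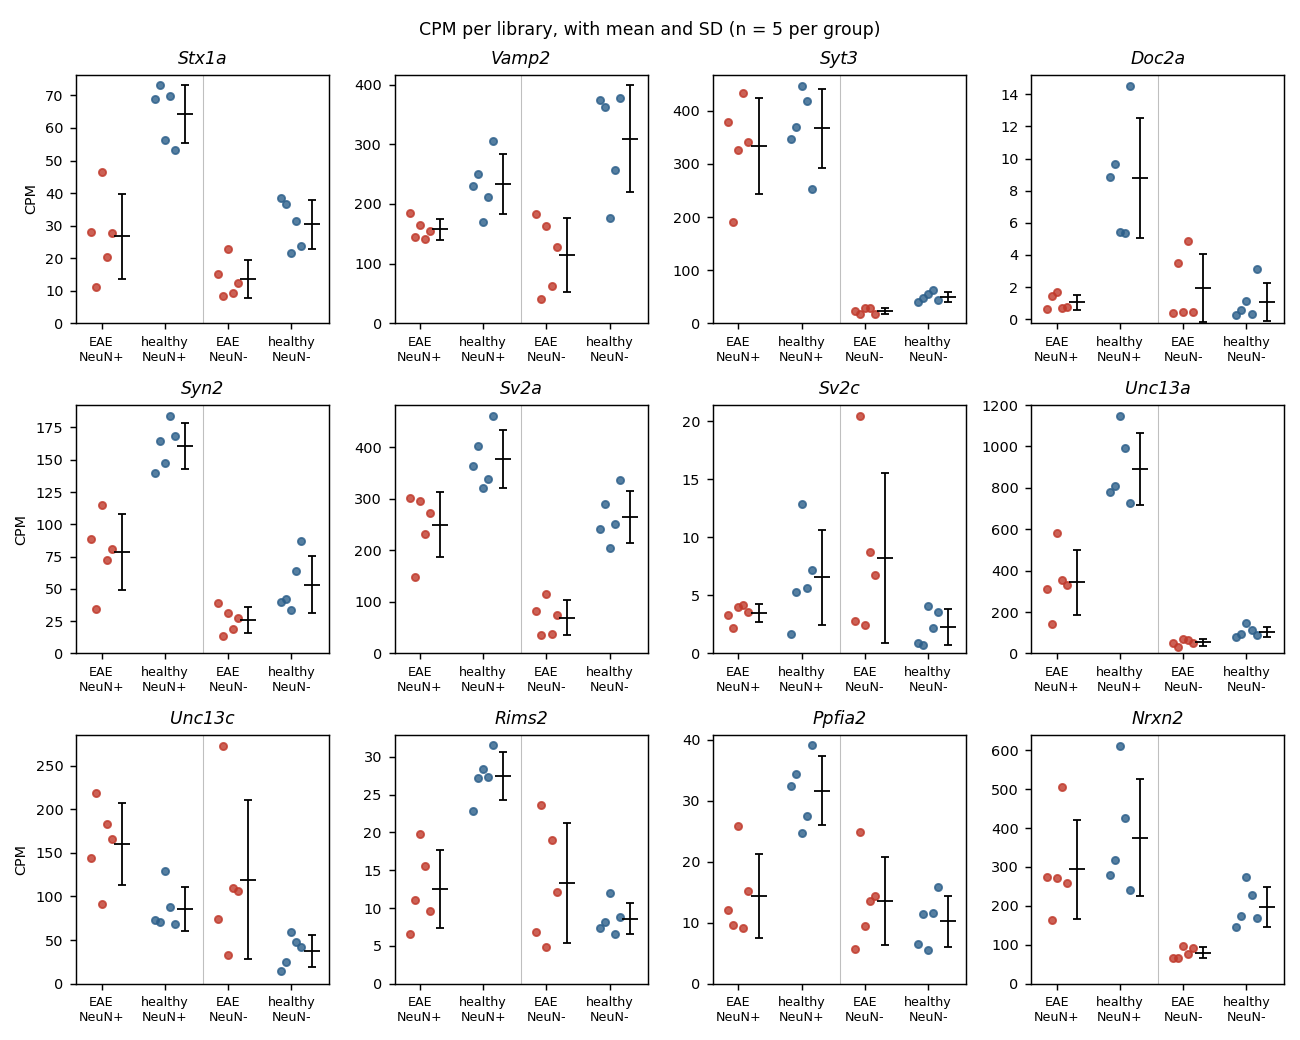
CPM in each library, 1 point per library in replicate order, with mean and SD beside them, for the 12 genes called in EAE against healthy in either sort; each panel has its own linear axis. Doc2a, Unc13a, Stx1a, Syn2 and Rims2 have all 5 EAE NeuN-positive libraries below all 5 healthy ones, and the wide SD of Sv2c and Unc13c in EAE NeuN-negative nuclei comes with 1 high library, EAE 2. The share of all genes separated in this way was not counted.

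Promoters are shown for the genes called in NeuN-positive nuclei other than Doc2a and Rims2, to set the 4 that fell beside Unc13c. RefSeq (GRCm38.p6) lists 250 bases before to 50 bases after the start, for 24 of the 33 genes. The capitals mark the GC box GGGCGG and, in Unc13a, also GGACAG and CAGCACC, the right and left part of the RE1 element bound by the repressor REST. Both strands were searched, so a marked CCGCCC is a GC box on the reverse strand, and in Unc13a a marked CTGTCC or GGTGCTG is an RE1 part on that strand. The marked motifs do not overlap each other.
Unc13a (chr8:71671708-71672007, minus strand): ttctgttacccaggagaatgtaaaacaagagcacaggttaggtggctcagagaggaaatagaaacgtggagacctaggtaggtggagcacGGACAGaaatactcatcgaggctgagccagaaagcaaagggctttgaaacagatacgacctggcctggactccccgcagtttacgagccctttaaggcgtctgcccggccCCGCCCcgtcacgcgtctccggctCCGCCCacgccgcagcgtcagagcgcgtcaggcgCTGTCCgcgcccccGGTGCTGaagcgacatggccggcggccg
Stx1a (chr5:135023232-135023531, plus strand): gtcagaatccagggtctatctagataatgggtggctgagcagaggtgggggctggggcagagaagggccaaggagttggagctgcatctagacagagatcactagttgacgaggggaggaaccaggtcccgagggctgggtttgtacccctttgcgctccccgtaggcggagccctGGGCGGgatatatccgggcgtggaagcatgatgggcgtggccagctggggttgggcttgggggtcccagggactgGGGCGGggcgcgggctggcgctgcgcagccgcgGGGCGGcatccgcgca
Syn2 (chr6:115134652-115134951, plus strand): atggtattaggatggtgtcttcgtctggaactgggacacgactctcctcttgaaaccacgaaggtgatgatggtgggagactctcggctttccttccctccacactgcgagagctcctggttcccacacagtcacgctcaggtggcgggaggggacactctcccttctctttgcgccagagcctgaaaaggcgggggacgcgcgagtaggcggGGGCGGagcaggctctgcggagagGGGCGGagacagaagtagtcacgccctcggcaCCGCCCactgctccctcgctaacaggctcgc
Ppfia2 (chr10:106470060-106470359, plus strand): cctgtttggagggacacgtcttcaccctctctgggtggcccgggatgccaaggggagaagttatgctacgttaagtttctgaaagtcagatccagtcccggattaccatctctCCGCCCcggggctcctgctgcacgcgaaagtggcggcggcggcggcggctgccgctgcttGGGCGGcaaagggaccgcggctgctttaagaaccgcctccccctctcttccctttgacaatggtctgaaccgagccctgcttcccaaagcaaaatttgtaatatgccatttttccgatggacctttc
Unc13c, the gene that rose (chr9:73968988-73969287, minus strand): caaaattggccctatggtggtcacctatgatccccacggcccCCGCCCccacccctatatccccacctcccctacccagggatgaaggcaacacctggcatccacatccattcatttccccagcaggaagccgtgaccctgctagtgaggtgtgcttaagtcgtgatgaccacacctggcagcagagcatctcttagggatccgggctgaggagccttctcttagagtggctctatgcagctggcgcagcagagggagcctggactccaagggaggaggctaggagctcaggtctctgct
A GC box was in all 5 of the promoters shown. A second promoter listed for Syn2 (chr6:115238744-115239043, plus strand), not shown here, had 0 GC boxes. Of the 33 promoters listed for the 24 genes, 21 had a GC box (63.6%), against 35.7% of 32851 promoters. The median GC content of the 33 promoters was 60.7%, against 52.7%. In Unc13a a GGACAG and a CAGCACC lie on the reverse strand, starting 9 and 23 bases after the start and 8 bases apart. CAGCACC was in 3 of the 33 promoters (9.09%, against 7.14%), GGACAG in 6 (18.2%, against 22.2%), the CRE TGACGTCA in 1, that of Syn1 (3.03%, against 1.79%), and TATAAA in 2 (6.06%, against 13.6%). A match describes letters and shows neither binding nor a cause.

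In NeuN-negative nuclei 5 of 32 genes tested were lower and 2 higher in EAE, where 12.6% of 17604 genes were lower and 15.1% higher, so the share lower was close to that of all genes and the share higher was below it. The median log2 fold change was -0.15 for the 32 and 0.05 for all genes. The oligodendrocyte markers fell in 5 of 10 genes and the monocyte and macrophage markers rose in 8 of 8, at a summed 553 to 1890 CPM in EAE and 54.5 to 90.1 CPM in healthy NeuN-negative libraries; their part in the results of this sort was not tested.

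Sv2a fell most clearly there (ENSMUSG00000038486, chr3:96181151-96195521, plus strand). It had 82.4, 36.1, 116, 37.5 and 74.6 CPM in EAE NeuN-negative libraries 1 to 5 and 242, 290.0, 204, 250.3 and 337 CPM in healthy NeuN-negative libraries 1 to 5. The groups did not overlap (log2 fold change -1.72 ± 0.34, adjusted p = 0.00187). Nrxn2, a presynaptic neurexin (ENSMUSG00000033768, chr19:6418731-6544169, plus strand), had 66.3, 67.1, 97.7, 76.7 and 92.7 CPM in EAE libraries 1 to 5 and 145, 174, 273, 227 and 168 CPM in healthy libraries 1 to 5, with no overlap (-1.07 ± 0.32, adjusted p = 0.0197). Syt3, a synaptotagmin (ENSMUSG00000030731, chr7:44384102-44400187, plus strand), was separated as well, at 23.0, 18.2, 28.9, 28.6 and 17.4 CPM in EAE and 40.7, 47.3, 54.6, 62.3 and 43.7 CPM in healthy libraries (-0.86 ± 0.28, adjusted p = 0.0317).

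Vamp2 (ENSMUSG00000020894, chr11:69088490-69092384, plus strand) and Stx1a fell with overlapping groups. Vamp2 had 183, 40.3, 162, 62.4 and 127 CPM in EAE and 375, 362, 177, 256 and 377 CPM in healthy libraries (-1.22 ± 0.39, adjusted p = 0.028). Stx1a had 15.1, 8.31, 22.9, 9.32 and 12.2 CPM in EAE and 38.6, 36.7, 21.7, 31.5 and 23.8 CPM in healthy libraries (-0.94 ± 0.32, adjusted p = 0.0366). Stx1a was thus called lower in both sorts. In this sort Stx1a was called in 3 of the 10 fits without 1 library (not without EAE 1, 2, 4 or 5 or healthy 1, 2 or 4, adjusted p = 0.0541 to 0.0979). Vamp2 was not called without EAE 4 or 5 or healthy 1 or 2 (adjusted p = 0.0662 to 0.09), and Syt3 not without EAE 1, 2 or 5 or healthy 4 (adjusted p = 0.0518 to 0.0868). Unc13a was separated in this sort too, at 31.3 to 69.4 CPM in EAE and 79.1 to 145 CPM in healthy libraries, but was not called (-0.75 ± 0.30, adjusted p = 0.0749). Vamp1 (-0.99 ± 0.38, adjusted p = 0.0651), Syn1 (-0.90 ± 0.35, adjusted p = 0.0636) and Syn2 (-0.81 ± 0.31, adjusted p = 0.0657) did not pass either.

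Unc13c and Sv2c (ENSMUSG00000051111, chr13:95954594-96132577, minus strand) were called higher in EAE NeuN-negative nuclei. Unc13c had 74.2, 272, 32.7, 110 and 107 CPM in EAE libraries 1 to 5 and 14.8, 24.3, 59.3, 47.3 and 42.0 CPM in healthy libraries 1 to 5 (log2 fold change 1.98 ± 0.54, adjusted p = 0.0135). Sv2c had 2.80, 20.4, 2.47, 8.71 and 6.73 CPM in EAE and 0.910, 0.727, 4.13, 2.17 and 3.58 CPM in healthy libraries (2.15 ± 0.74, adjusted p = 0.0388). Both were highest in EAE 2, the library of lowest depth, and groups overlapped for both. Without it the log2 fold changes were 1.29 for Unc13c (adjusted p = 0.0446) and 1.35 for Sv2c (adjusted p = 0.163). Sv2c was also not called without EAE 4 or 5 or healthy 1, 2, 4 or 5 (adjusted p = 0.0544 to 0.103). It passed the expression filter of this sort through the EAE libraries, where it was higher, so no rise is read from its call. With the mitochondrial share as a covariate the values were -0.15 for Unc13c (adjusted p = 0.926) and -0.26 for Sv2c (adjusted p = 0.917). Doc2a was at 0.368 to 4.86 CPM in EAE and 0.253 to 3.09 CPM in healthy NeuN-negative libraries and was too low to be tested.

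**Figure D4:**
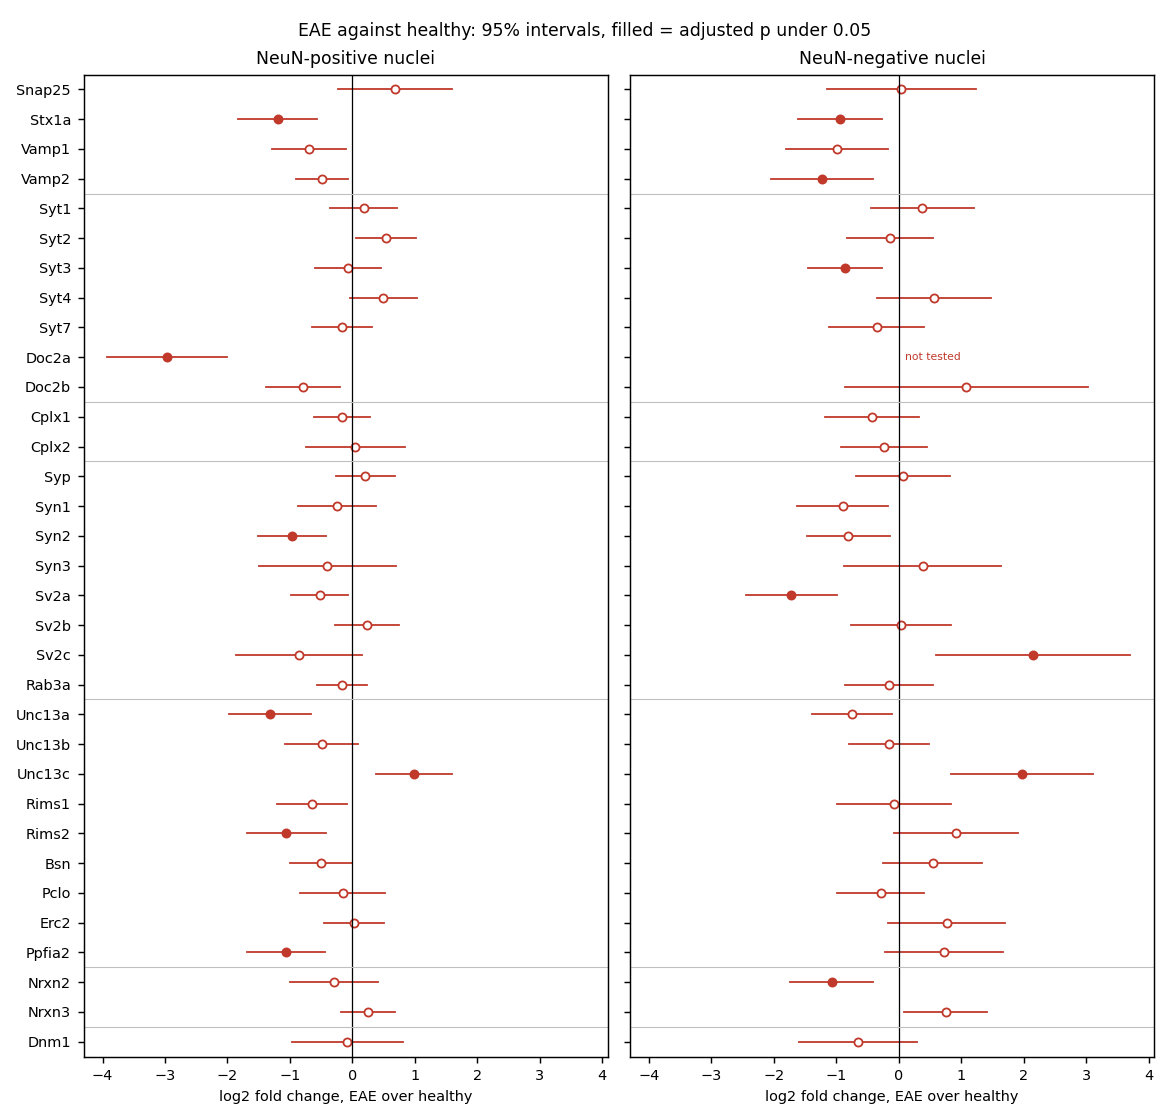
Log2 fold change of EAE over healthy for each gene in NeuN-positive (left) and NeuN-negative nuclei (right), with 95% intervals as lines and filled points for adjusted p under 0.05. In NeuN-positive nuclei 6 filled points lie left of 0 and 1 right of it; in NeuN-negative nuclei 5 lie left and 2 right.

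Whether EAE acted differently on a gene in NeuN-positive than in NeuN-negative nuclei was tested over all 20 libraries. Of the 33 genes 0 differed with a higher effect in NeuN-positive nuclei and 0 with a lower one. Of all 20444 genes tested 1.74% and 0.822% did. Among the 33, 7 had an unadjusted p under 0.05, and the share of all genes under that p was not counted. The DESeq2 Wald test called 1 higher and 4 lower, where it called 3.2% and 4.27% of all genes. With the replicate block, 5 genes were called, 2 higher and 3 lower, where 9.74% of all genes were called higher and 2.45% lower. That block rests on a pairing by title number, which is not settled. In that fit the EAE effect was higher in NeuN-positive nuclei for Sv2a (log2 difference 1.42, adjusted p = 0.00462) and Syt3 (0.96, adjusted p = 0.0311). It was lower for Rims2 (-1.67, adjusted p = 0.034) and Sv2c (-2.32, adjusted p = 0.048). Doc2a was the fifth (-3.52, adjusted p = 0.0282), but it was filtered out of the NeuN-negative comparison, with 53 counts over the 5 EAE and 152 over the 5 healthy libraries, and entered the fit through the NeuN-positive libraries, so no difference between sorts is read from it.

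The other genes of the vesicle cycle are set beside the shares of all genes, 6.55% higher and 3.68% lower in NeuN-positive nuclei. Of 21 other SNARE and fusion genes tested 1 rose and 0 fell, and the riser was Vamp8, a SNARE of secretory granules and immune cells (log2 fold change 3.17 ± 0.55, adjusted p = 0.00207). Of 13 other synaptotagmins and calcium sensors 2 fell, Syt5 (-1.13 ± 0.24) and Syt16 (-0.88 ± 0.22). Among 25 other vesicle proteins and transporters Syngr2, a synaptogyrin, rose (2.33 ± 0.42) and Syngr3, a synaptogyrin of vesicles (-1.11 ± 0.25), and Slc32a1, the transporter that loads GABA and glycine (-1.15 ± 0.31), fell. Of 22 other active zone and adhesion genes Rimbp2, a RIM-binding scaffold (-1.53 ± 0.36), and Lin7b (-0.77 ± 0.22) fell, and of 27 endocytosis genes Pacsin1 (-0.91 ± 0.26) and Amph, an amphiphysin (-0.91 ± 0.26), fell. Rises were 0 in the synaptotagmin, active zone and endocytosis lists. In NeuN-negative nuclei the counts higher and lower were 1 and 3 of 22 SNARE, 3 and 1 of 15 synaptotagmin, 2 and 2 of 24 vesicle, 0 and 5 of 22 active zone and 0 and 8 of 27 endocytosis genes, where 15.1% of all genes were higher and 12.6% lower.

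Marker lists of cell types gave the following in NeuN-positive nuclei of EAE against healthy mice. Of 7 inhibitory neuron markers 2 fell (Slc32a1 and Gad1), of 7 excitatory neuron markers 1 fell (Lmx1b), and of 5 motor neuron markers 0 were called. Rises were 3 of 7 for microglia, 4 of 5 for neutrophils, 5 of 5 for T cells, 2 of 10 for oligodendrocytes, 0 of 5 for their precursors and 1 each for astrocytes (of 8), endothelial cells (of 6), ependymal cells (of 3) and Schwann cells (of 4), with 0 falls in these lists. In NeuN-negative nuclei falls were 1 of 14 for neurons (Map2), 3 of 5 for oligodendrocyte precursors, 1 of 8 for astrocytes and 1 of 3 for ependymal cells. Rises there were 1 of 7 for excitatory neurons (Slc17a8), 1 of 7 for microglia, 4 of 5 for neutrophils, 8 of 8 for T cells, 1 of 6 for endothelial cells and 1 of 4 for Schwann cells, and 0 of 4 motor neuron markers were called.

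Exon GC content ran alongside the fold changes. Across the 33 genes Spearman's rho of the log2 fold change with GC content was -0.36 in NeuN-positive nuclei, against -0.11 over 16556 genes, and across 32 genes in NeuN-negative nuclei it was -0.50, against -0.12 over 17482 genes; genes share their libraries and are not replicates. After removal of each library's GC trend all 6 lower genes were still called in NeuN-positive nuclei, and 2 of the 5 in NeuN-negative nuclei. Of the genes that overlap these, Ino80e shares 1103 exon bases with Doc2a on the opposite strand, and stood at -0.40 ± 0.26 on the log2 scale (adjusted p = 0.318). Colgalt1 shares 495 exon bases with Unc13a (-0.69 ± 0.28, adjusted p = 0.126), and Timp4 shares 90 with Syn2 (0.93 ± 0.36, adjusted p = 0.104), all in NeuN-positive nuclei. Acss3 shares 2436 exon bases with Ppfia2, the most of any pair, at a mean of 0.442 CPM in EAE and 0.334 CPM in healthy NeuN-positive libraries. In NeuN-negative nuclei both genes that share exon bases with Nrxn2 were called: Gm14964 (207 bases) was lower, at a mean of 5.77 CPM in EAE and 47.3 CPM in healthy libraries (-2.80 ± 0.51, adjusted p = 0.00103). Slc22a12 (682 bases) was higher, at a mean of 4.80 CPM in EAE and 0.678 CPM in healthy libraries (3.15 ± 0.98, adjusted p = 0.0264). Whether reads were counted by strand is not given, so reads of such pairs cannot be told apart.

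**Figure D5:**
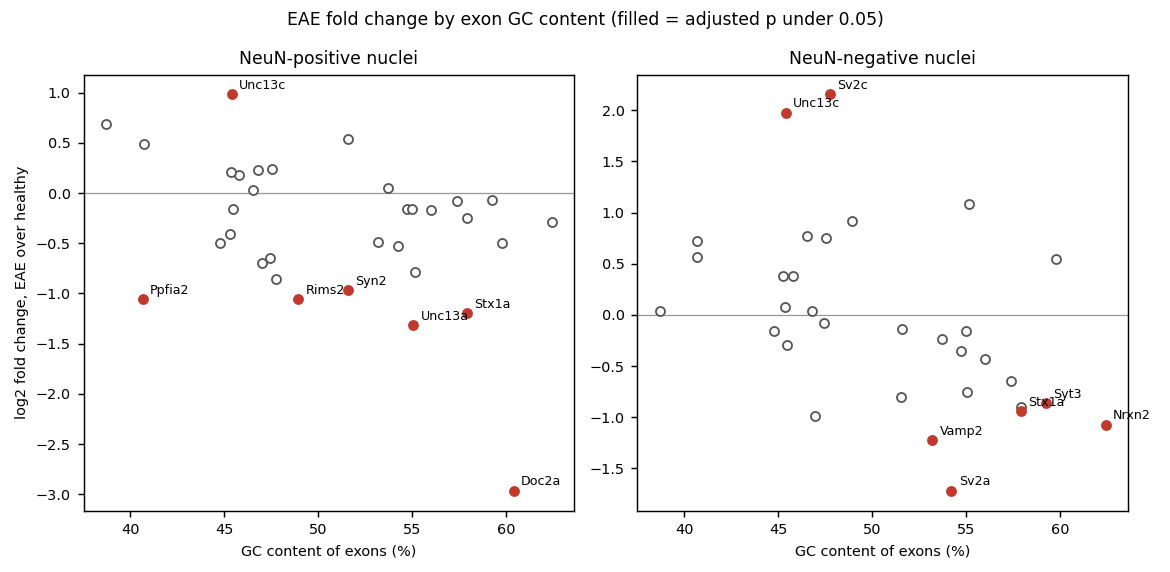
Log2 fold change of EAE over healthy against the GC content of exons (percent) in NeuN-positive (left) and NeuN-negative nuclei (right); each point is 1 gene, filled where adjusted p is under 0.05. Genes with more GC tend to lie lower in both panels, and the vertical axes of the panels differ.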

How the data were processed

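RNA of NeuN-sorted spinal cord nuclei was purified on Qiagen columns and sequenced from poly(A) TruSeq libraries, per the labels' protocols. The authors deposited 1 table of whole, unnormalized counts per Ensembl gene for 20 libraries. STAR 2.4, DESeq2, GRCm39 and mm10 are named without a role in the submitters' processing notes; no counting tool, annotation or strand setting is given there or in the labels used here. Positions and exon lengths are from GENCODE M21 (GRCm38), matched by gene identifier.

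Groups came from the sample titles. The test was the robust quasi-likelihood test of edgeR 4.0.16 (R 4.3.3) after filterByExpr on the groups and TMM scaling, with Benjamini-Hochberg adjustment over all genes tested and calls at an adjusted p under 0.05, on the 10 libraries of a comparison, and the difference between sorts on all 20. The code was tested on simulated data. Alternatives were DESeq2 1.42.0 size factors and Wald test, limma 3.58.1 voom, other filters, a replicate block, all 20 libraries, the mitochondrial share, a GC trend, scaling to 513 neuron-enriched genes (leaving out the 33 and genes overlapping them), and each library left out. No pair of libraries was identical (lowest chi-square per gene 11.1). Same-numbered libraries of the sorts deviated together from their group means, with correlations of 0.115 to 0.379 in EAE and 0.28 to 0.7 in healthy mice. Differently numbered libraries reached 0.187 in EAE and 0.32 in healthy mice. Each EAE NeuN-positive library correlated best with its own number, and in healthy mice not every one did. The title numbers were taken to pair the sorts, which these values do not settle. The 33 genes, the 5 pathway and 14 marker lists and the alternatives were chosen with earlier results of these data known; all 33 are named, with library values for genes called in EAE against healthy and for the highest and lowest level of each role, and from the other lists up to 2 genes called higher and 2 lower in NeuN-positive nuclei, by smallest p. The inhibitory neuron list in NeuN-negative nuclei is not reported here.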

Additional observations from a re-analysis of the deposited data

Results flagged for a closer look

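In 14 of 132 groups of 5 values (10.6%) 1 library stood far from the other 4. About 1 in 20 would be flagged for independent, normally distributed values. The groups share the same libraries and the CPM were not log-transformed, so that rate does not measure chance here. Healthy NeuN-negative 5 was the high one for Snap25 (939 CPM), Vamp1 (469 CPM), Syt1 (57.7 CPM), Sv2b (29.0 CPM) and Erc2 (11.3 CPM). EAE NeuN-positive 4 was high for Syn3 (20.2 CPM), Pclo (195 CPM) and Dnm1 (3178 CPM), and healthy NeuN-positive 3 for Syn3 (29.8 CPM) and Pclo (217 CPM); both are among the numbers with a high mitochondrial share. EAE NeuN-positive 3 was low for Syt4 (80.8 CPM, others 175 to 187) and healthy NeuN-positive 1 for Rab3a (171 CPM, others 205 to 216). EAE NeuN-negative 3 was low for Sv2b (6.39 CPM) and EAE NeuN-negative 4 for Unc13b (18.6 CPM).

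The interaction term passed for 4 genes in the fit with the replicate block, whose pairing by title number is not settled. They were Syt3 (log2 difference 0.96), Sv2a (1.42), Rims2 (-1.67) and Sv2c (-2.32). For Sv2c the EAE change in NeuN-negative nuclei was not called without EAE 2 and was -0.26 with the mitochondrial covariate. Doc2a (-3.52) passed as well, but was too low to be tested in NeuN-negative nuclei, and no difference between sorts is read from it. With the block 9.74% of all genes were called with a higher effect in NeuN-positive nuclei and 2.45% with a lower one. Without the block none of the 33 passed.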

How the results depend on the processing

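Counts of genes called higher and lower changed by more than 1.5 times under these alternatives. For EAE in NeuN-positive nuclei (1 higher, 6 lower) voom gave 6 and 13, where it called 22.9% of all genes higher and 23.3% lower. Genes called higher were 0 with no filter, the replicate block, the GC trend removed, the mitochondrial covariate or all 20 libraries. In that order the shares of all genes higher were 4.07, 4.43, 7.44, 3.17 and 6.71%. With neuron-enriched scaling 2 were higher (10.3% of all genes). Without the high-mitochondrial mice and with the covariate 3 were lower (1.83 and 0.996% of all genes). For EAE in NeuN-negative nuclei (2 and 5) voom gave 8 higher, no filter 1 and 8, the replicate block 1 and 2, the covariate 0 and 1. The shares of all genes were 25.7% higher with voom and 14.9% and 8.03% with no filter. They were 10.7% and 10.2% with the block and 5.74% and 2.52% with the covariate. Without the high-mitochondrial mice 1 was higher (17.4% of all genes). Lower were 2 with the GC trend removed (13.9% of all genes) and 9 with all 20 libraries (18.5%). In the sort comparisons 1 gene was lower in healthy mice with voom, the block and the covariate, and 1 in EAE mice with the DESeq2 Wald test. Of all genes 35.1, 32.5 and 27.4% were lower in these healthy fits and 22.6% in the EAE fit. For the difference between sorts (0 and 0) the Wald test gave 1 and 4, voom 4 and 6, the block 2 and 3, the covariate 1 and 1. Of all genes the Wald test called 3.2% and 4.27%, voom 15% and 9.12%, the block 9.74% and 2.45%, the covariate 3.8% and 1.55%. Leaving out 1 library gave 0 to 3 higher and 2 to 7 lower in NeuN-positive and 1 to 3 and 2 to 6 in NeuN-negative nuclei, and 0 to 1 and 0 to 3 for the difference. Shares of all genes in these fits were 3.98 to 10.1% higher and 1.06 to 8.64% lower in NeuN-positive nuclei. They were 9.51 to 21.5% and 7.52 to 15.3% in NeuN-negative nuclei, and 0.291 to 3.52% and 0.0966 to 1.64% for the difference. With the covariate Sv2c (-0.26) and Unc13c (-0.15) reversed in NeuN-negative nuclei. The causes were not tested. Scaling to neuron-enriched genes moved the median of all genes by 0.29 in NeuN-positive nuclei. No filter moved it by 0.21 in NeuN-positive and 0.90 in NeuN-negative nuclei, by -0.78 between sorts in EAE mice and -0.33 in healthy mice, and by -0.35 for the difference. The block for EAE against healthy rests on numbers that share only a number (correlations -0.323 to 0.211 and -0.334 to 0.274). Doc2a rests on 5 to 34 counts a library in EAE NeuN-positive nuclei and passed the filter of the main fit through the healthy libraries.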
